A study of Mus musculus with 21 samples.

Results

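CSR-HTGTS-Seq sequences junctions formed by broken ends at a chosen site, the bait, together with whatever DNA each end was joined to, the prey. The joins described here are those whose prey lies on chromosome 12 upstream of the bait, between the IgH joining segments and the telomere, a stretch that holds the variable (VH) segments. They were chosen by position alone, from 114684910 of the mm9 build to the end of the chromosome, which is 20 kb and more beyond the bait end at 114664909. There were 141 such joins among 40530 in all (0.348%), and all 21 libraries held some, with 2 to 14 in a library of 1180 to 3513 joins.

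All libraries came from CH12F3, a mouse B lymphoma line, activated over 72 h by anti-CD40 together with IL4 and TGF-β. Every group shares a deletion from Sμ to Sα on the non-coding IgH allele, and the group with no further change is called NCdel (n = 6). Iadel (n = 6) also lacks Iα, the start of the germline transcript through Sα. In i3CBEc (n = 3), 3 CTCF-binding elements (CBEs) were inserted in NCdel cells, in the orientation that the labels call convergent. Iadel-i3CBEc (n = 3) has such an insertion downstream of Cγ2a in Iα-deleted cells, and i3CBEc-3CBEdel (n = 3) combines the insertion with a deletion of the 3′CBEs, CTCF sites beyond the constant genes. The labels do not say whether libraries of a group came from separate cultures or from how many clones, so the p-values below measure the spread between libraries only.

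In class switching, the enzyme AID deaminates cytosines in transcribed switch regions, and the breaks that follow are joined to replace the constant gene. The VH segments lie upstream of the bait and are used earlier, when RAG proteins join a V, a D and a J segment and the DNA between them is lost from that allele. The assembled V exon is known as the target of AID in somatic hypermutation, and AGCT is a motif that AID favours. For a prey upstream of the bait, a read on the minus strand runs in the same direction as the bait, as in an excised circle, and a read on the plus strand is an inversion.

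Pooled over libraries, the 100-kb stretch with the most VH-side joins held the VH sequence of an assembled V(D)J exon of these cells. That sequence is shown first. Of 7 minus-strand reads aligned up to the edge of the VH sequence at 116396614, 6 ran on past it (5 libraries). In 5 of these the read went through 25 further bases and into the J sequence that starts at 114667726. The longest of them, from Iadel library 4, matched 57 J bases. The read of Iadel library 4, on the minus strand, has 40 VH bases in lower case, the 25 bases between V and J in capitals, and then the J bases.
VDJ read-through: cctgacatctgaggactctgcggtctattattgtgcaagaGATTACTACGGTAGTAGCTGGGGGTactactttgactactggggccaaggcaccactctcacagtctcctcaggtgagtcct
The 300 bases of VH sequence next to that edge, chr12:116396614-116396913 of mm9 on the minus strand, are given as the consensus of 5 to 22 prey reads a base, with AGCT in capitals.
VH segment: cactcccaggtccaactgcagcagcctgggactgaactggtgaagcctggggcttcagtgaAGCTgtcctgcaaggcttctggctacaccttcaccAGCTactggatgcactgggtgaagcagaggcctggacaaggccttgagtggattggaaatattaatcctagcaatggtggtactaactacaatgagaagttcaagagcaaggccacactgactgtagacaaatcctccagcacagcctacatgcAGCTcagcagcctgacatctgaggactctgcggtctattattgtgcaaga
Their VH edge lies 1731705 bases from the bait in the mm9 reference, and 2843 bases from it along the assembled exon. The 1728887 bases between J and V are not in these reads. An mm9 annotation was not used here, so the VH segment is not named.

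Pooled over libraries, VH-side joins were most frequent at and near this VH sequence. The 100-kb bin that holds it (116384910 to 116484909) had 53 of the 141 joins (37.6%), in 19 of 21 libraries. The next bins had 5 joins each. Within the bin, 34 joins from 15 libraries fell between 116396614 and 116396990, a span of 377 bases called the VH span below. Of these, 30 lay in the 300 bases printed above and 4 (2 of NCdel, 2 of Iadel) just past them. NCdel held 9 of these 34 in 4 libraries, Iadel 12 in 5, i3CBEc 1, Iadel-i3CBEc 4 in 2 and i3CBEc-3CBEdel 8 in all 3. Per 10000 joins of the group these were 7.78, 8.19, 2.61, 7.76 and 15.0, in that order. Every genotype had joins in the printed 300 bases (7, 10, 1, 4 and 8, in the same order), and i3CBEc, the group with the fewest joins in all (3828), had the fewest there, a single join.

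Inside the VH span, joins were densest 136 to 184 bases from the VH edge. This stretch, chosen after its values were seen (116396750 to 116396799), held 16 joins from 10 libraries of 4 groups, of which 12 were on the minus strand. All 3 minus-strand joins at 116396793 came from different libraries, 1 each of Iadel, NCdel and i3CBEc-3CBEdel. They are printed as bait followed by prey, with the inserted bases in capitals in the first and the second, and the bases that bait and prey share in capitals in the third.
join of Iadel 1: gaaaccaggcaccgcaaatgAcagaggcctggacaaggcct
join of NCdel 5: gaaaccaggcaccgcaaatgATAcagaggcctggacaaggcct
join of i3CBEc-3CBEdel 1: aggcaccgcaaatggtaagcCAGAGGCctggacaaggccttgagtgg
The junctions differ in structure (1 inserted base, 3 inserted bases and 7 shared bases), so the 3 reads are not copies of 1 junction. Over the whole set, 2 pairs of reads within a library were alike in prey position, strand, bait position, junction structure and prey length, and differed by 1 base in how far the bait reached along the read. They lie at 116396750 (Iadel-i3CBEc library 2) and 118795007 (i3CBEc-3CBEdel library 2). They were counted as separate joins, and each pair could be 1 junction read more than once. Both reads at 116396750 are among the 16 joins of the densest stretch and its 12 on the minus strand.

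A second shared position was the VH edge itself, with 4 plus-strand joins from Iadel libraries 1, 3, 3 and 5. Each had inserted bases before the VH sequence, namely 2, 5, 7 and 5. The last 2, 5, 5 and 5 of them matched the reverse complement of the bases next to V in the assembled exon above. The inserted bases of these 4 joins are thus, for the most part, the letters of the assembled V(D)J exon that the mm9 reference does not hold at this place. They are 4 of the 12 joins with inserted bases in the VH span.

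AGCT, searched as these 4 letters (the same on both strands), occurs 3 times in the printed VH sequence. Among promoters of 300 bases in the RefSeq table (GRCm38), 77.6% hold it, with a mean of 1.56. Of the 30 joins in the VH span other than the 4 at its edge, 2 (6.67%) lay within 10 bases of an AGCT, and 19.1% of the 377 positions of the span do. The bases printed between V and J also hold AGCT, and these values leave that site out.

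Past the VH span, but only within 20 kb of the VH edge, most joins were inversions. Within 20 kb of the edge, but after the 377-base span, there were 18 joins, 16 on the plus strand and 2 on the minus strand. In the span itself 13 were plus and 21 minus. The plus-strand joins past the span came from all 5 groups, with 3 in NCdel, 3 in Iadel, 1 in i3CBEc, 5 in Iadel-i3CBEc and 4 in i3CBEc-3CBEdel. Counting both strands, the density was 1.8 per kb from 5 to 10 kb and 0.3 per kb from 10 to 20 kb. From 20 to 100 kb there was 1 join, and that read has a near-identical partner. In i3CBEc-3CBEdel library 2, the reads at 116396784 and 116446476, of 200 bases, differ in 2 letters, and have 0 and 5 mismatches to their places in mm9. They are counted as 2 joins, although they could be 1 join placed on 2 similar VH copies, and values without the second are given where they matter. Mismatches to mm9 were otherwise alike in the VH span (0.326% of aligned bases), after it (0.320%) and outside its bin (0.317%).

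**Figure D1:**
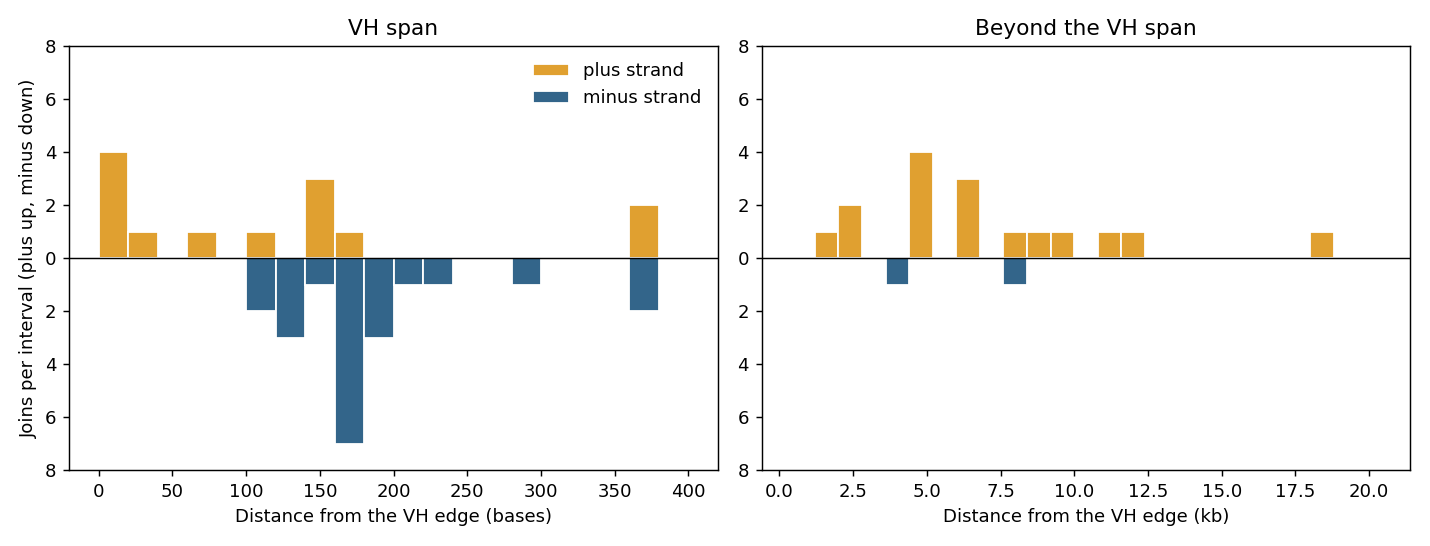
Joins of all 21 libraries by distance from the VH edge, in 20-base intervals in the left panel and 0.8-kb intervals in the right panel, with plus-strand joins drawn upwards and minus-strand joins downwards. Both strands occur in the VH span, and 16 of the 18 joins past it within 20 kb are on the plus strand.

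Between J and V, few joins were found. From the bait to J there were 734 joins, of which 80 lay in the last kb before J, 64 of them on the minus strand. From J to V, over 1.73 Mb of the reference, there were 7 joins. The first of them, at 114667898, lies below the border used here, and the next, at 114721044, was 53.3 kb from J. The 6 counted as VH-side joins came from 4 libraries, NCdel 4, Iadel 1, i3CBEc 3 and i3CBEc-3CBEdel 3. They made up 3.51 per Mb, against 17.2 per Mb in the 4.77 Mb beyond the bin of the VH edge. Low density there was common to all groups, with 2, 2, 1, 0 and 1 joins in NCdel, Iadel, i3CBEc, Iadel-i3CBEc and i3CBEc-3CBEdel. Whether these few joins lie on the other IgH allele was not tested.

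The density of VH-side joins therefore did not fall steadily with reference distance. From 0.25 to 1 Mb there were 2 joins, from 1 to 2 Mb 57, of which 53 were in the bin of the VH edge, and then 20, 9, 21 and 16 joins in the next 4 Mb. The last interval, 6 to 6.5 Mb, held 10. On the centromeric side, beyond the constant genes, the same intervals held 40, 23, 12, 4, 12, 10 and 5 joins. The highest centromeric density was next to the bait (53.3 per Mb from 0.25 to 1 Mb), where the VH side had 2.67 per Mb.

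**Figure D2:**
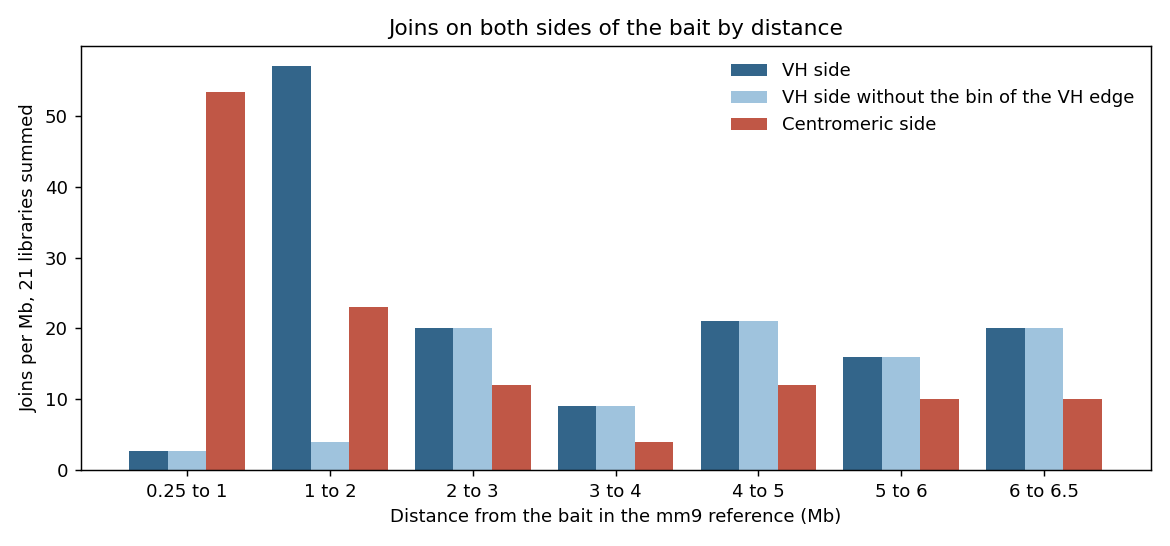
Joins per Mb of the mm9 reference, summed over the 21 libraries, in intervals of distance from the bait, for the VH side with and without the 100-kb bin of the VH edge and for the centromeric side. The VH side has 2.67 per Mb from 0.25 to 1 Mb, where the centromeric side has 53.3, and 57 per Mb from 1 to 2 Mb, which falls to 4 without the bin.

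The contrast between the sides was tested within libraries. Joins within 1 Mb of the bait, among those from 0.25 to 6.5 Mb, made up 2.12% ± 7.55 on the VH side and 33.5% ± 25.1 on the centromeric side (SD, n = 21). None of the 21 libraries had the larger share on the VH side (sign-change permutation, p = 2e-05, near the smallest that 100000 draws can give, adjusted p = 1e-04 over 5 tests). On the VH side the whole range from 0.25 to 1 Mb lies between J and V, a stretch that the assembled exon does not hold. The test therefore does not compare decay over DNA equally present on both sides. How much of the contrast remains without that loss was not tested. With joins within 2 Mb, a range that takes in the VH span, the difference was -9.95 percentage points and was not called (permutation, adjusted p = 0.297). The density over the whole range was 0.0054% ± 0.00275 of joins per 100 kb on the VH side and 0.00433% ± 0.00207 on the centromeric side, and was higher on the VH side in 12 of 21 libraries (permutation, adjusted p = 0.223). From 1 Mb outwards the VH side had the higher density (difference 0.00306 percentage points per 100 kb, permutation, adjusted p = 0.00045), and this range includes the VH span. Without the bin of the VH edge, that range held 80 joins on the VH side and 66 on the centromeric side over all libraries, a difference of 0.000635 that was not called (permutation, adjusted p = 0.301). Without the bin of the VH edge the difference from 0.25 Mb outwards was -0.00107 (permutation, adjusted p = 0.183). The call on density from 1 Mb outwards was thus lost without that bin.

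Beyond the bin of the VH edge, 82 joins from 20 libraries were spread to the last one at 121257010. From 100 kb past the VH edge they came at 17 in the first 0.9 Mb, and at 12, 17, 17 and 19 in each Mb that followed. The bins with 5 joins each started at 116984910, 118784910, 119984910 and 121084910 and drew on 3 or 4 libraries each. At 118795007, i3CBEc-3CBEdel library 2 had 2 joins, the like pair named above. The GRCm38 gene table lists Zfp386, Vipr2, Wdr60, Esyt2, Ncapg2 and Ptprn2 as the first protein genes after the VH segments, in that order. No join was assigned to them, since positions of that build were not used. NCdel held 18 of the 82, Iadel 21, i3CBEc 11, Iadel-i3CBEc 21 and i3CBEc-3CBEdel 11. Per 10000 joins these were 15.6, 14.3, 28.7, 40.8 and 20.6.

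Adding the CBEs to Iα-deleted cells came with a larger VH-side share. In Iadel-i3CBEc the 3 libraries had 0.517%, 0.508% and 0.760% of all joins on the VH side. In Iadel the lowest was 0.114%, the median 0.244% and the highest 0.370%. The groups did not overlap, and the mean rose from 0.238% ± 0.0847 (SD, n = 6) to 0.595% ± 0.143 (SD, n = 3), 2.50-fold (exact permutation p = 0.0119, the smallest for 3 against 6 libraries, adjusted p = 0.0476 over 4 measures). No adjustment was made across the comparisons of groups. Without the bin of the VH edge the difference went from 0.357 to 0.276 percentage points and was no longer called (exact permutation, adjusted p = 0.0952). With the like pair counted as 1 join it was 0.336 and still called (exact permutation, adjusted p = 0.0476). With any 1 library left out it was not called (exact permutation, adjusted p of 0.0714 to 0.143). The unadjusted p was then 0.0179 or 0.0357, the smallest that the fewer relabelings allow. This measure alone could therefore not reach a call there. The 3 libraries of each group that share run 490 did not overlap either, with 0.179% ± 0.0589 in Iadel and 0.595% ± 0.143 in Iadel-i3CBEc (exact permutation p = 0.1, the smallest for 3 against 3, adjusted p = 0.400). Single libraries rest on few joins. Iadel library 5, with 2 joins, had a 95% Wilson interval of 0.0312% to 0.413%, and Iadel-i3CBEc library 3, with 11, one of 0.425% to 1.36%, for counting error only.

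**Figure D3:**
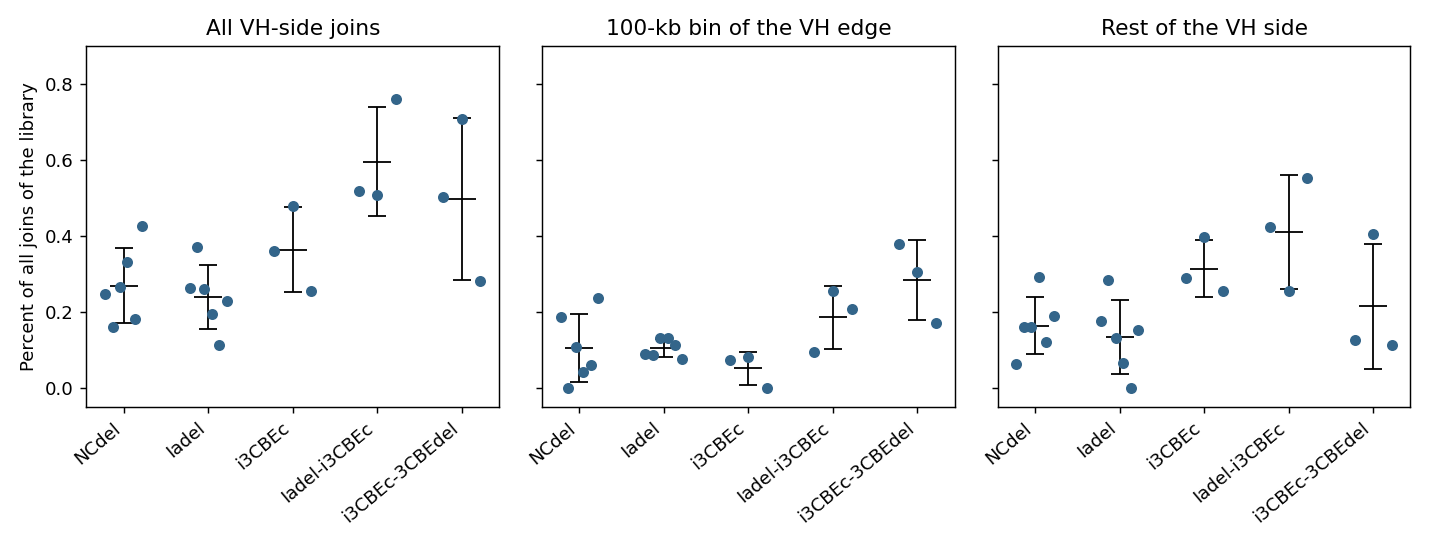
VH-side joins as a percent of all joins of each library (dots), with the group mean and SD (bars), for the whole VH side, the 100-kb bin of the VH edge and the rest. The 3 Iadel-i3CBEc libraries lie at 0.508% to 0.760% in the left panel, above the 6 Iadel libraries at 0.114% to 0.370%.

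For Iα itself, the VH-side share was 0.238% ± 0.0847 in Iadel and 0.268% ± 0.0986 in NCdel (n = 6 each), with overlap (exact permutation, adjusted p = 1). Counted against joins on the other chromosomes instead of all joins, the difference was larger. NCdel had 8.49 ± 5.29 VH-side joins per 1000 such joins and Iadel 3.68 ± 0.903, and Iadel was then lower (difference -0.482 per 100, exact permutation, adjusted p = 0.0260). In run 490, the only one with libraries of both, they overlapped. NCdel had 6.04, 3.91 and 6.53 there, and Iadel 3.67, 2.22 and 4.33. The NCdel libraries of runs without Iadel had 7.11, 8.55 and 18.8. The difference on this scale was not tested within run 490. Joins on the other chromosomes made up 35.5% ± 10.7 of all joins in NCdel and 63.8% ± 12.5 in Iadel, so the 2 scales differ for this pair. For Iadel-i3CBEc, with 14.3 ± 4.34 per 1000, the rise over Iadel was called on both scales (exact permutation, adjusted p = 0.0476).

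In cells with Iα, the insertion left a difference that was not called. The i3CBEc libraries had 0.359%, 0.477% and 0.254%, and NCdel had a lowest of 0.160%, a median of 0.256% and a highest of 0.426%. The means were 0.364% ± 0.112 (n = 3) and 0.268% ± 0.0986 (n = 6), and the groups overlapped (exact permutation, adjusted p = 0.524). The i3CBEc and NCdel libraries share no sequencing run. An insertion effect taken from them, and any test that uses it, thus holds run and genotype together. The insertion effect was 0.357 percentage points in Iα-deleted cells and 0.0953 in the others. Their difference of 0.262, tested by relabelings around the average effect, a choice made after seeing the values, had an exact permutation p of 0.0191 and an adjusted p of 0.0765 over 4 measures.

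Iadel-i3CBEc and i3CBEc did not overlap (0.595% ± 0.143 and 0.364% ± 0.112, n = 3 each), and the exact permutation p was 0.1, the lower limit of such a test on 3 and 3 libraries. With the like pair of Iadel-i3CBEc library 2 counted as 1 join, the groups overlapped (exact permutation p = 0.2). Per 1000 joins on other chromosomes they overlapped too, at 14.3 ± 4.34 and 10.5 ± 3.98 (exact permutation p = 0.4). The 3 libraries of i3CBEc-3CBEdel had 0.503%, 0.708% and 0.282%, a mean of 0.497% ± 0.213, and overlapped those of i3CBEc (exact permutation, adjusted p = 0.8). The direction here depends on the bin of the VH edge. i3CBEc-3CBEdel had 0.283% ± 0.105 of joins there and i3CBEc 0.0505% ± 0.0439, with no overlap, seen after the fact. The i3CBEc value rests on 2 joins in all, and that of i3CBEc-3CBEdel on 15, which include the near-identical read at 116446476. Outside that bin the means were 0.214% ± 0.165 and 0.313% ± 0.0751. Leaving out the near-identical read at 116446476 changed the difference of the whole VH side from 0.134 to 0.117 percentage points. A single library moved it further, to 0.0287 without i3CBEc-3CBEdel library 2 and to 0.242 without library 3. Per 1000 joins on other chromosomes i3CBEc-3CBEdel had 26.5 ± 7.30 and i3CBEc 10.5 ± 3.98, without overlap (exact permutation p = 0.1, adjusted p = 0.4). Joins on other chromosomes made up 21.6% ± 15.6 of all joins in i3CBEc-3CBEdel and 35.5% ± 2.76 in i3CBEc. The groups of this pair, of the pair before it and of i3CBEc against NCdel share no sequencing run, and what belongs to the run and what to the genotype cannot be told apart there.

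The bins of 100 kb were compared over the whole of chromosome 12, with limma on log2 joins per 10000. A bin needed 10 joins over all libraries, which left 8 bins, of which only that of the VH edge lies on the VH side. It was called in 0 of the 5 comparisons, with adjusted p from 0.104 to 0.89 in limma. The largest difference was 1.87 (log2, SE 0.83) for i3CBEc-3CBEdel over i3CBEc, with a limma p of 0.0261 before and 0.104 after adjustment. In that bin i3CBEc had 2 joins in all, so the pseudocount of 0.5 weighs on differences from it. The difference for Iadel-i3CBEc over i3CBEc was 1.30 (SE 0.83), and over Iadel 0.68 (SE 0.718). For Iadel over NCdel it was 0.30 (SE 0.587), and for i3CBEc over NCdel -0.32 (SE 0.718). Among all 8 bins, limma called 25% for Iadel against NCdel and for Iadel-i3CBEc against i3CBEc, and 12.5% in each of the other 3 comparisons. The other VH-side bins, with up to 5 joins each, are too thin for this test.

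Strand was close to even over the whole set, with 68 joins on the plus strand and 73 on the minus strand. Per library, the plus-strand share was 54.0% ± 15.6 in NCdel and 39.2% ± 23.9 in Iadel (n = 6 each), 46.7% ± 17.6 in i3CBEc, 59.1% ± 12.03 in Iadel-i3CBEc and 42.5% ± 6.61 in i3CBEc-3CBEdel (n = 3 each). None of the 5 comparisons was called, with adjusted exact permutation p from 0.429 to 1. Those of 3 against 3 libraries could not be called, since the smallest exact permutation p there is 0.1. Beyond the bin of the VH edge, Iadel had 5 plus and 16 minus joins, NCdel 11 and 7, and Iadel-i3CBEc 12 and 9, pooled over libraries. Per library, the plus-strand share of the VH side without that bin was also compared. It differed by -33.0 percentage points for Iadel minus NCdel and by 34.2 for Iadel-i3CBEc minus Iadel. Neither difference was called (exact permutation, adjusted p = 0.286 and 0.143). Against the centromeric side the plus-strand share was 47.2% ± 17.7 and 48.2% ± 25.1 (n = 21, permutation, adjusted p = 0.889).

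Microhomology, bases shared by bait and prey at the junction, was found in 79 of the 141 joins (56.0%). A further 41 were direct (29.1%) and 21 had inserted bases (14.9%). On chromosomes other than 12 the shares of 18834 joins were 63.7%, 27.3% and 8.98%. Per library, microhomology was 53.8% ± 23.8 on the VH side and 62.3% ± 4.26 on the other chromosomes (n = 21, permutation, adjusted p = 0.223), and it was higher on the VH side in 9 of 21 libraries. Joins in the VH span had the most insertions, 12 of 34 (35.3%), with 18 showing microhomology and 4 direct. By group these 12 were 2 of 9 joins in NCdel, 6 of 12 in Iadel and 0 of 1 in i3CBEc. Iadel-i3CBEc had 3 of 4 and i3CBEc-3CBEdel 1 of 8, and this split was not tested. Of these 12, 4 are the joins at the VH edge, whose inserted bases are mostly letters of the assembled exon that mm9 lacks. A further 2 are the like pair at 116396750, which could be 1 junction. The share of inserted bases is therefore partly set by the reference. Beyond its bin 6 of 82 had inserted bases (7.32%), 43 microhomology and 33 direct (40.2%). Among groups, the microhomology share per library ranged from 41.1% ± 25.0 in i3CBEc to 67.1% ± 15.4 in i3CBEc-3CBEdel. No comparison was called (adjusted exact permutation p from 0.524 to 1). That between these groups, and any other of 3 against 3 libraries, could not be called (smallest exact permutation p 0.1).

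**Figure D4:**
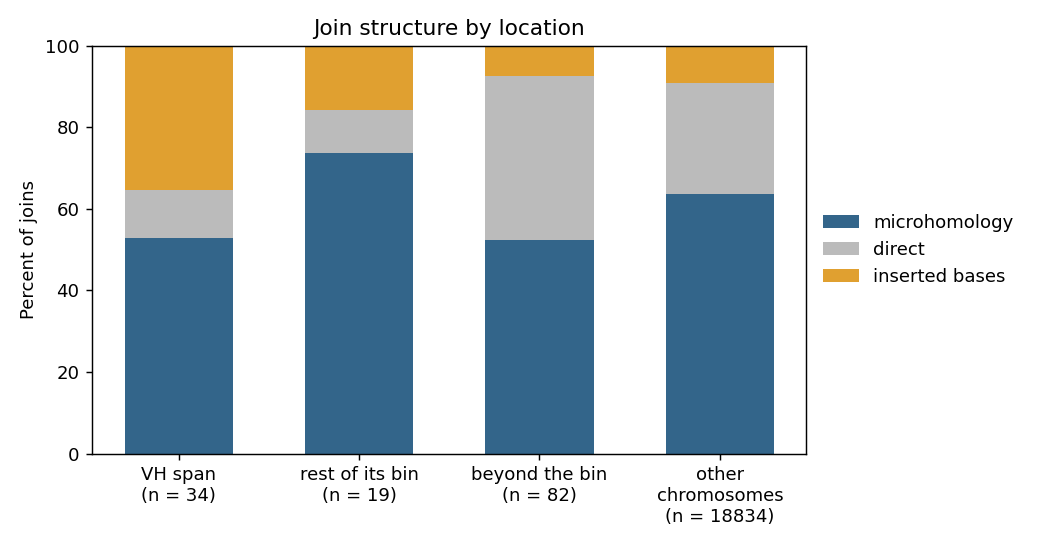
Percent of joins with microhomology, direct joins and joins with inserted bases, pooled over the 21 libraries, in the VH span, the rest of its 100-kb bin, the stretch beyond that bin and the other chromosomes. Inserted bases make up 35.3% in the VH span, 7.32% beyond its bin and 8.98% on other chromosomes. The 12 joins with inserted bases in the VH span include the 4 at its edge, whose inserted bases are mostly letters of the assembled exon. Of the 12, 2 are from NCdel, 6 from Iadel, 3 from Iadel-i3CBEc and 1 from i3CBEc-3CBEdel.

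The share of VH-side joins within 1 Mb of the bait was small in all groups, with 4 of the 141 joins (1 each in NCdel, Iadel, i3CBEc and i3CBEc-3CBEdel). No genotype comparison of that share was called (adjusted exact permutation p from 0.524 to 1). With 3 against 3 libraries a call was out of reach (smallest exact permutation p 0.1). The median distance was 2.41 Mb.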

How the data were processed

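The deposited junction tables, 1 line per join, hold positions and read coordinates in bases and no normalised measure. Per the submitters' processing notes reads were aligned to mm9 with Bowtie2, version and settings not given in the sources used here. From Iadel library 4, 1539 of 4614 lines were kept, since the others are reads of libraries 5 and 6. Chromosome 12 positions from 114526902 upwards were lowered by 99 bases in the insertion libraries. The members, lists and tests were chosen with earlier results of these data known. Joins were counted per library as a percent of all its joins. For groups, differences in library means were tested by exact permutation (two-sided), adjusted (Benjamini-Hochberg) over the 4 measures of a comparison and not across comparisons. Sides of the bait were tested by sign changes within libraries (100000 draws). Bins of 100 kb were fitted with limma 3.58.1 in R 4.3.3 with a pseudocount of 0.5, over all 21 libraries. The code was first run on simulated counts of many more bins with large changes. That run does not show how the fit performs on the few bins here. A call means an adjusted p below 0.05. Named bins were those called or with the most joins, and named positions those with joins in 3 libraries. The rest was described after the values were seen. Depth was 1180 to 3513 joins a library. Reads carry no molecular identifiers in these files, so intervals cover counting error only. Same-numbered Iadel and NCdel libraries correlated at -0.417 to 0.618 in their deviations, so numbers were not taken as pairs. Alternatives were other borders, prey lengths, denominators and filters, each library left out, and, added after seeing the data, the VH side without the bin of the VH edge, without the near-identical read and with like reads of a library counted once.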

Additional observations from a re-analysis of the deposited data

Results flagged for a closer look

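Within groups of 6, a sample far from the others was found in 2 libraries for the share of VH-side joins within 1 Mb of the bait. NCdel library 4 had 12.5%, and the other 5 libraries were at 0. Iadel library 1 had 11.1%, and the other 5 were at 0. Each value is 1 join. Chance flags about 1 in 20 groups of evenly spread values, a rate that does not apply here, since with the others at 0 any library with a near join stands out.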

How the results depend on the processing

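Of 455 alternative values for 35 results, 380 kept their direction and side of the threshold. Those that changed a direction or a call are given here, and the cause was not tested. The rise of the VH-side share in Iadel-i3CBEc over Iadel was not called without the bin of the VH edge (0.276 percentage points), in run 490 alone (0.416) or with any 1 library left out (0.274 to 0.400), where fewer relabelings remain. Paired by replicate number as a block it was 0.298 and not called (exact permutation p = 0.25, the smallest for 3 pairs). The labels give the shared numbers no meaning, and 1 of 6 Iadel libraries correlated best with its own number in NCdel. The block gave 2 called bins for i3CBEc against NCdel and 2 for Iadel-i3CBEc against Iadel, against 1 and 1, and changed no other call. Per 100 joins on other chromosomes, Iadel was called lower than NCdel (-0.482), although their libraries of run 490 overlapped on that scale.

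Among uncalled differences, in percentage points, Iadel minus NCdel turned for the near share with a border 100 kb beyond the bait (1.85), within 2 Mb (21.4) and without the bin of the VH edge (0.952), and for microhomology with 2 or more bases (3.54), without that bin (29.3) and in run 490 (3.33). Within 2 Mb the near share also turned for i3CBEc minus NCdel (-16.9), Iadel-i3CBEc minus i3CBEc (8.48) and i3CBEc-3CBEdel minus i3CBEc (42.6). Microhomology turned for Iadel-i3CBEc minus Iadel with 2 or more bases (-3.42) and without the bin (-8.76). Without the bin, i3CBEc-3CBEdel minus i3CBEc turned for the share (-0.0984), the near share (5.56) and the plus-strand share (1.94). Against the centromeric side, density was called from 1 Mb outwards (0.00306) and turned without the bin (-0.00107), and the near share was not called within 2 Mb (-9.95).

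With 1 library left out, Iadel minus NCdel ranged from -0.0568 to 0.00111 for the share, -2.08 to 1.85 for the near share and -12.1 to 7.87 for microhomology, and the log2 difference of the bin of the VH edge from -0.087 to 0.571. The corresponding ranges for i3CBEc minus NCdel were -2.08 to 14.6 for the near share, -24.9 to 0.139 for microhomology and -0.706 to 0.155 for that bin. Microhomology in Iadel-i3CBEc minus Iadel ranged from -1.46 to 21.3. For i3CBEc-3CBEdel minus i3CBEc the near share ranged from -11.1 to 6.67 and the plus-strand share from -10.8 to 5.83. Called bins of chromosome 12 ranged from 1 to 2 for Iadel against NCdel (1 with bins of 200 kb), from 0 to 1 for i3CBEc against NCdel (0 with bins of 200 kb or a minimum of 20 joins), from 1 to 2 for Iadel-i3CBEc against Iadel, from 1 to 4 for Iadel-i3CBEc against i3CBEc (0 with bins of 200 kb) and from 0 to 1 for i3CBEc-3CBEdel against i3CBEc.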
